A study of Danio rerio with 9 samples.

Results

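Impurity L is an azithromycin impurity that differs from azithromycin only in the substituents that the side chain at C5 of the lactone ring carries on its nitrogen. Its table holds the pathways and the differentially expressed genes (DEGs) found when the liver of zebrafish larvae exposed to impurity L was compared with the liver of larvae given DMSO. All rows of that table and all distinct genes in them, matched by Entrez identifier, are described here. These are 897 terms and 398 genes, of 7048 terms and 1154 genes in the tables of all 8 compounds.

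Wild-type AB larvae were exposed from 3 dpf for 72 h to impurity L at 2 mM or to DMSO, and the dissected liver was sequenced at 6 dpf. The same was done with azithromycin and impurities F, J, I, Q, R, and S at the same concentration. Each condition is 1 library, all 8 compounds were compared with the same DMSO library, and the number of larvae behind a library is not given in the sources used here. The DMSO library enters only through the directions in these tables. Each table gives a gene as upregulated or downregulated and holds no expression value, read count, or fold change. Neither the depth nor the size of a change can be read from these tables, and no replicate check or test of a difference was possible. "Upregulated" and "downregulated" below are the directions in the authors' deposited table. The study names a fold change of at least 2 as its threshold, but the rule by which genes entered these tables is not given in the sources used here. A gene that is not listed for a compound is therefore not shown to be unchanged, and may even have passed that fold change. In dissected tissue, fewer cells of a type and less RNA per cell cannot be told apart.

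Macrolide antibiotics such as azithromycin can injure the liver. The study examined *c-fos* in relation to this injury. The Fos proteins pair with Jun proteins to form the transcription factor AP-1. Their genes are immediate-early genes, which are transcribed within minutes of a stimulus without new protein synthesis, mainly through mitogen-activated protein kinase (MAPK) cascades. In such a cascade a small GTPase of the Ras family switches on a chain of kinases that ends in ERK, JNK, or p38. Hepatocytes are also the main site of drug metabolism by cytochrome P450 enzymes, of bile acid synthesis, and of glucose output.

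Of the 1154 genes listed for any compound, 398 were listed for impurity L (34.5%), 204 as upregulated (17.7%) and 194 as downregulated (16.8%). Upregulated genes thus made up 51.3% of the list, and between 48.7% (impurity S) and 52.3% (azithromycin and impurity R) of the other lists. The genes came from 135 KEGG, 711 Reactome, and 51 PANTHER terms. KEGG held 289 of the genes, Reactome 231, and PANTHER 23. The median gene was in 4 terms and 85 genes were in 1 term.

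A few genes carried much of the table. The 20 genes in the largest number of terms, 10 in each direction, were in 458 of the 897 terms (51.1%). At the top stood subunits of the proteasome, the protease complex that degrades ubiquitin-tagged proteins. Its genes *psma1* and *psma6b* were upregulated and in 156 terms each, whereas *psmb7* (155 terms) and the activator gene *psme4b* (148 terms) were downregulated. A proteasome gene was present in 156 terms and no other gene in 28 of them. The other upregulated genes in the most terms were *shc1* (82), an adaptor of receptor tyrosine kinases, *rpa2* (69), which coats single-stranded DNA, *traf6* (60), *fbxw11b* (50), *gnb3b* (48), *nr4a1* (39), *mapk7* (39), and *fosab* (36). The other downregulated ones were *hrasb* (120), *pik3r1* (89), *camk2d1* (88), *camk2g1* (86), *nrg1* (85), *camk4* (42), *ap2m1a* (36), and *gng7* (35). The 897 terms held only 482 different sets of genes, so the terms are not separate measurements. Of all terms, 242 had at least 5 genes.

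Among KEGG terms, 712 of 10387 pairs of a background gene and a term were listed for impurity L (6.85%). The share was 7.58% of 39378 pairs for Reactome and 6.28% of 1434 pairs for PANTHER. The term shares below are read beside these values. Of the KEGG terms with at least 5 genes, nucleotide excision repair had the largest share, with 6 of 34 genes (17.6%). It was followed by pyruvate metabolism with 6 of 37 (16.2%), basal transcription factors and NOD-like receptor signaling with 6 of 39 each (15.4%), and arachidonic acid metabolism with 6 of 42 (14.3%). Pyruvate metabolism had larger shares for impurities Q (18.9%), S (21.6%), and F (24.3%), and NOD-like receptor signaling for impurity S (17.9%). Basal transcription factors had the same share for impurity Q (15.4%). For nucleotide excision repair and arachidonic acid metabolism, the largest shares of another compound were 11.8% (impurities J and Q) and 9.52% (impurity Q). Of the Reactome terms, gene silencing by RNA came first with 6 of 18 genes (33.3%). NMDA receptor activation had 5 of 24 (20.8%), ion homeostasis 5 of 26 (19.2%), megakaryocyte development and platelet production 8 of 43 (18.6%), and the cellular response to heat stress 7 of 46 (15.2%). Megakaryocyte development and platelet production also held 8 genes for impurities J and Q, ion homeostasis 5 for impurity J, and NMDA receptor activation 5 for impurity S. The largest numbers of another compound were 5 for gene silencing by RNA (azithromycin) and 6 for heat stress (impurity F). No PANTHER term had 5 genes; DNA replication had 3 of 8 (37.5%), all upregulated. By number of genes, the largest KEGG term was metabolic pathways with 63 of 1083 (5.82%), followed by endocytosis with 24 of 285 (8.42%) and MAPK signaling with 23 of 269 (8.55%).

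**Figure D1:**
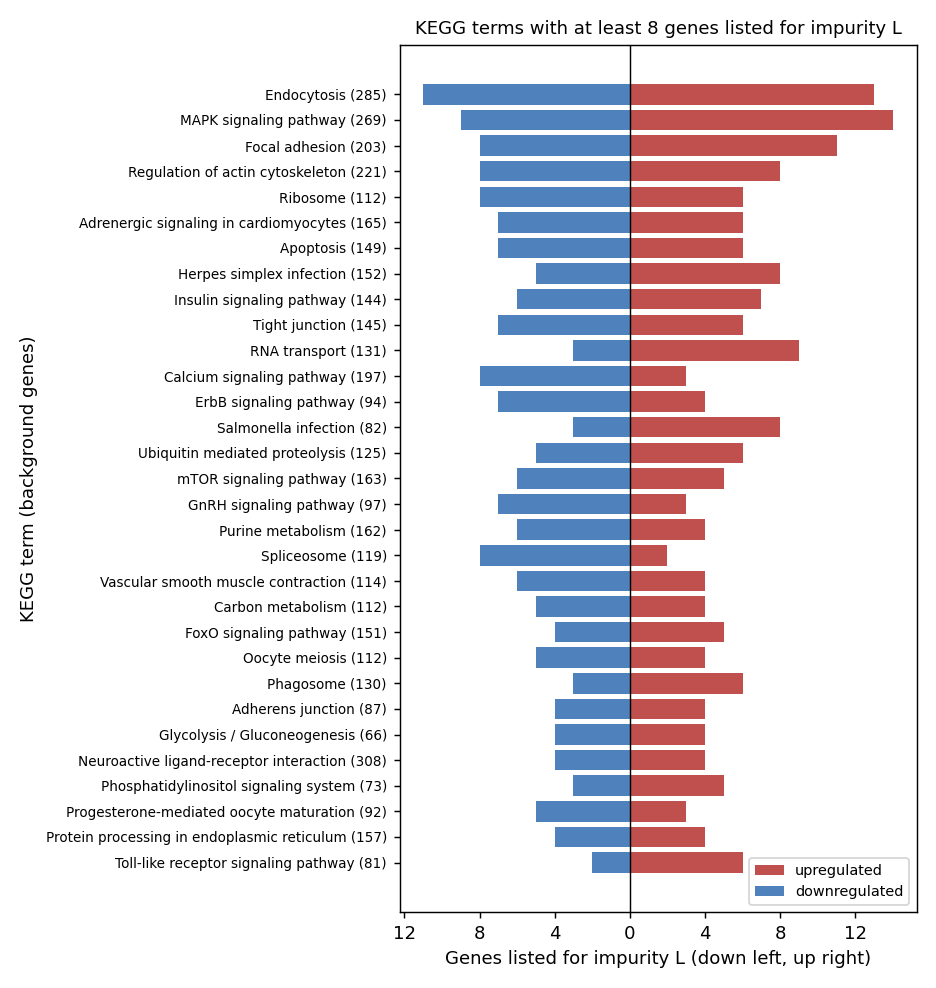
Number of genes listed for impurity L as downregulated (blue, left) and upregulated (red, right) in each of the 31 KEGG terms with at least 8 listed genes, without the term metabolic pathways; the number of background genes of a term is in brackets. By the share of their listed genes in 1 direction, RNA transport (9 up, 3 down) and Toll-like receptor signaling (6 up, 2 down) lay farthest to the upregulated side and the spliceosome (2 up, 8 down) farthest to the downregulated side.

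All AP-1 and immediate-early genes listed for impurity L were upregulated, but they are few. Of all genes listed for any compound, 34.5% were listed for impurity L and 17.7% were upregulated. With so few genes, nothing is read from the share of these lists. Of 18 AP-1 genes, 5 were listed for any compound and 2 for impurity L, *fosab* (Entrez identifier 394198) and *fosaa* (570238), both upregulated. Of 26 immediate-early genes outside AP-1, 5 were listed for any compound and 3 for impurity L, all upregulated. These were *nr4a1*, an orphan nuclear receptor, *klf2a*, a Krüppel-like transcription factor known for its response to blood flow, and *btg2*, an antiproliferative factor induced by growth signals and by p53. For azithromycin, *fosab* was upregulated and the other 4 genes were not listed. For impurity R, *fosaa* was downregulated. None of the 5 genes was in the tables of impurities F, J, I, Q, and S. In its RNA-seq, the study also reports *fosab* above the fold change threshold for impurities J, I, Q, and R. It reports no significant effect of impurities F and S on this gene. Absence from a table therefore does not show that *fosab* stayed under the threshold there. These tables do not show that its upregulation was particular to azithromycin and impurity L. The 2 *fos* genes are paralogs, and reads shared between them were not tested.

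The listed genes of the MAPK signaling term lay at several levels of the cascade, but none of them was a Raf or MAP kinase kinase gene. At its entry, *hrasb*, a Ras GTPase, was downregulated, as were *nrg1*, a ligand of ErbB receptors listed in ErbB signaling, and *araf*, a Raf kinase listed in insulin signaling. Further down, *mapk7* (ERK5) was upregulated. Of the ribosomal S6 kinases that ERK activates, *rps6ka1* was upregulated and *rps6ka3a* downregulated. Of the phosphatases, *dusp7*, which inactivates ERK, was downregulated, whereas *ppm1aa*, which acts on stress-activated kinases, was upregulated. Among the targets, *fosab*, *fosaa*, and *nr4a1* were upregulated, and the transcription factor genes *atf4a*, *max*, and *mef2cb* were downregulated. Other upregulated genes of the term were *il1b*, *traf6*, *akt2l*, the filamin genes *flnca* and *flncb*, and the calcium channel subunit genes *cacnb2a* and *cacna2d3*. Other downregulated ones were *arrb2a* (β-arrestin), *pak1*, and *cacna1da*. In all, 14 genes of the term were upregulated and 9 downregulated. Of these genes, *mapk7*, *nr4a1*, *traf6*, and *arrb2a* were not listed for any other compound. How many genes stand in the table of impurity L alone, or of another compound alone, is not given here. Being listed for no other compound therefore does not mark a gene as particular to impurity L, here or below. The direction of *rps6ka1* was up for impurities L and Q and down for azithromycin and impurities F, I, R, and S.

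**Figure D2:**
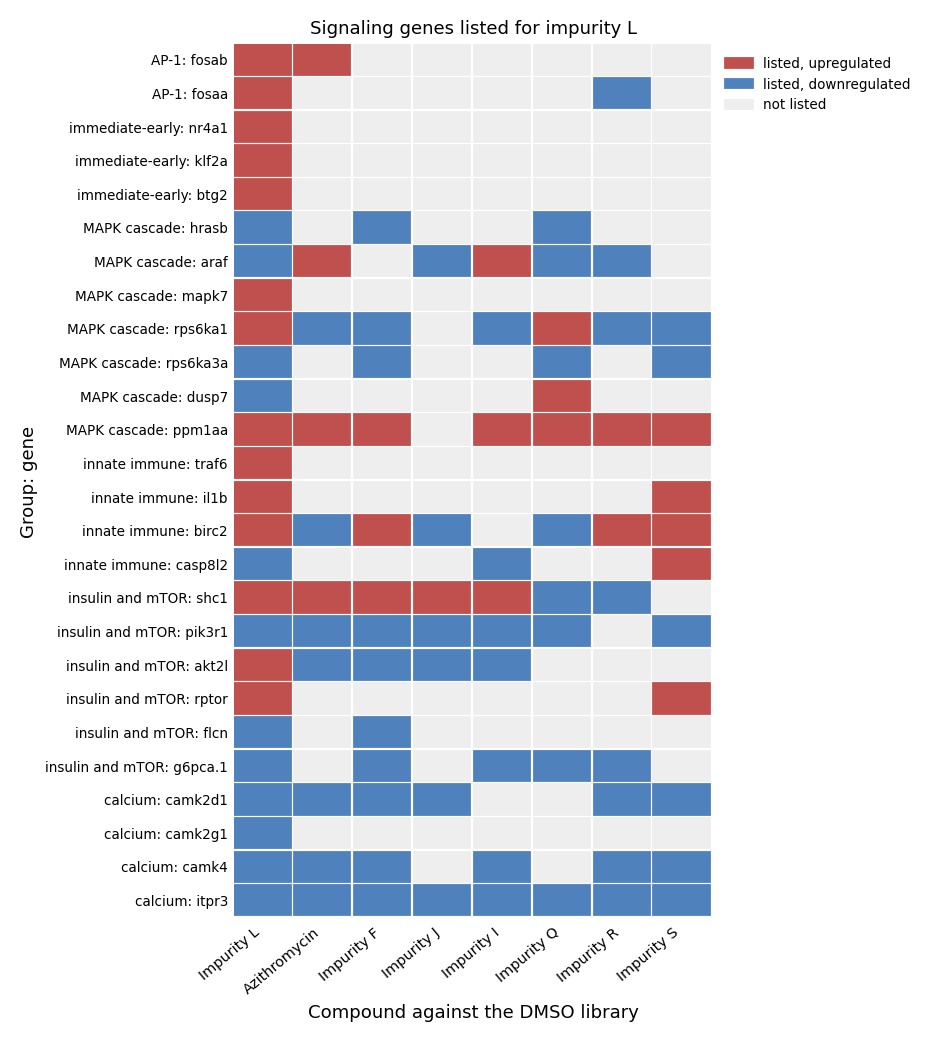
Direction of 26 signaling genes listed for impurity L (rows, grouped by role) in the table of each compound (columns), as upregulated (red), downregulated (blue), or not listed (gray). The genes *nr4a1*, *klf2a*, *btg2*, *mapk7*, *traf6*, and *camk2g1* were listed for impurity L and for no other compound, and *akt2l* was upregulated for impurity L and downregulated for the 4 other compounds that list it.

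In 2 KEGG terms of innate immune signaling, more genes were upregulated than downregulated. The larger Reactome term innate immune system held 8 upregulated and 10 downregulated genes. In Toll-like receptor signaling, with 8 of 81 genes listed (9.88%), 6 genes were upregulated. Among them were *traf6*, the ubiquitin ligase that relays signals of Toll-like and interleukin-1 receptors, *il1b*, the cytokine interleukin-1β, and *akt2l*, *fosab*, and *fosaa*. The downregulated genes were *pik3r1* and *casp8l2*, a caspase gene that RefSeq names *casp10*. NOD-like receptor signaling had 4 upregulated genes, among them *birc2*, an inhibitor of apoptosis that ubiquitinates signaling proteins, and 2 downregulated ones, *casp8l2* and the chaperone gene *hsp90ab1*. Both terms hold *traf6* and *il1b*. The gene *il1b* was also upregulated for impurity S and not listed for the others. Of 56 inflammation and complement genes, 7 were listed for any compound and 2 for impurity L, *il1b* upregulated and the complement gene *c3a.3* downregulated. The receptor gene *csf1ra*, 1 of 12 markers of macrophages and neutrophils, was downregulated for impurities L and F and was the only one of these markers listed for impurity L. Whether fewer macrophages went with these values was not tested. Toll-like receptor signaling held 6 upregulated and 1 downregulated gene for impurity S, 5 and 3 for impurity I, and 4 and 1 for impurity R. It held 2 and 5 for azithromycin, 3 and 5 for impurity F, 1 and 4 for impurity J, and 2 and 3 for impurity Q.

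Apoptosis had 13 of 149 genes listed (8.72%). Among the 6 upregulated genes were *fosab*, *fosaa*, *akt2l*, *birc2*, and *atm*, the kinase that senses DNA breaks. The downregulated genes were *actb1*, *hrasb*, *pik3r1*, *ptpn13*, *casp8l2*, *atf4a*, and *itpr3*, a channel that releases calcium from the endoplasmic reticulum. Of 44 cell death and p53 genes, 4 were listed for any compound and *birc2* alone was listed for impurity L. Impurities R, S, and F also had it as upregulated, and azithromycin, impurity J, and impurity Q had it as downregulated.

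The insulin signaling term held 7 upregulated and 6 downregulated genes. Near the receptor, *shc1* was upregulated and *pik3r1*, the regulatory subunit of phosphatidylinositol 3-kinase, was downregulated. The kinase gene *akt2l* and *rptor*, which brings substrates to the growth-controlling complex mTORC1, were upregulated. Of the metabolic targets, *acaca*, the acetyl-CoA carboxylase of fatty acid synthesis, was upregulated, and *g6pca.1*, the glucose-6-phosphatase of hepatic glucose output, and *lipeb*, a hormone-sensitive lipase, were downregulated. Others were the exocyst gene *exoc7* (up) and *hrasb*, *araf*, and the cap-binding gene *eif4e1c* (down). The mTOR term added *rps6ka1* and *eif4ba* (up) and *rps6ka3a*, *eif4bb*, and *flcn*, the folliculin gene (down). In that term, 5 genes were upregulated and 6 downregulated for impurity L. The same term held 1 upregulated and 9 downregulated genes for azithromycin, 2 and 12 for impurity F, and 5 and 7 for impurity S. The direction of *akt2l* was opposite to that for azithromycin and impurities F, J, and I, and the gene was not listed for impurities Q, R, and S.

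**Figure D3:**
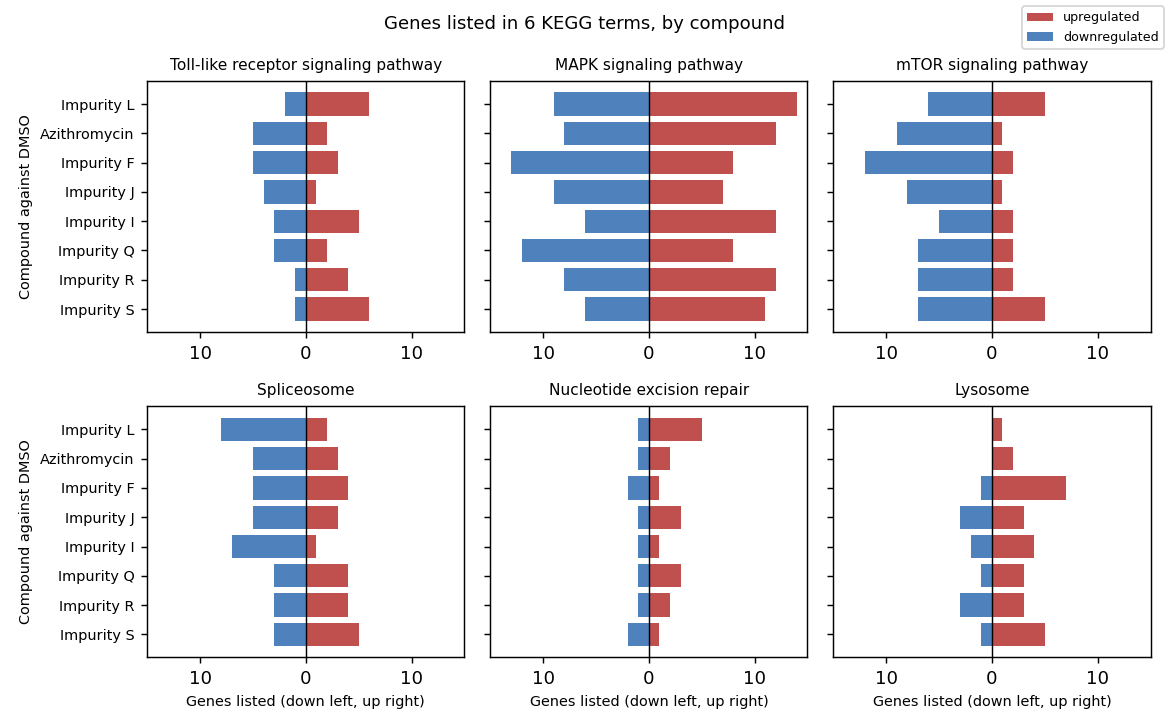
Number of downregulated (left) and upregulated (right) genes in 6 KEGG terms for each compound against the shared DMSO library. For impurity L the spliceosome had 2 upregulated and 8 downregulated genes, nucleotide excision repair had 5 and 1, and the lysosome had 1 and 0, where the other compounds had 2 to 8 lysosome genes.

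Cytochrome P450 genes and other genes of drug and lipid metabolism were among those listed. All 6 cytochrome P450 genes listed for impurity L were upregulated, of 12 listed for any compound, where 34.5% of all genes were listed and 17.7% were upregulated. They were *cyp2p6* and *cyp2p9* of a family that oxidizes drugs and fatty acids, *cyp3c3* of the CYP3 family, *cyp27a1.4* and *cyp46a1.3* of families that hydroxylate sterols, and *cyp27b1* of vitamin D activation. This family was counted after its values were seen, so nothing is read from its share. The tables of azithromycin and impurities I, Q, R, and F held 5, 3, 4, 3, and 2 such genes, all upregulated, that of impurity J held 3 upregulated and 1 downregulated, and that of impurity S held 2 downregulated. Of 45 xenobiotic metabolism genes, 5 were listed for any compound, and *cyp2p6* and *cyp2p9* were those listed for impurity L. In arachidonic acid metabolism they stood beside *ggt5a* and the prostaglandin D synthase gene *ptgdsb.2* (up) and *ptgesl* and a gene that RefSeq names *plb1* (down). Of 30 oxidative stress genes, 4 were listed for any compound, and *nqo1*, a quinone reductase, was downregulated for impurity L. Among further detoxifying enzymes, *gsto2* was upregulated and *gstz1*, *ces2*, and the efflux transporter gene *abcc1* were downregulated. The KEGG term drug metabolism by cytochrome P450 held *gsto2* alone for impurity L, 1 of 30 genes (3.33%, beside 6.85% of KEGG pairs). It held 4 genes for impurities I and S and 2 for each other compound. The direction of *gsto2* and of *abcc1* was the same in all 8 tables.

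In sterol and fatty acid metabolism, *hmgcra*, the rate-limiting enzyme of cholesterol synthesis, was downregulated and *cetp*, the cholesteryl ester transfer protein, was upregulated. The gene *cetp* was not listed for any other compound. Of 35 genes of bile acid and sterol synthesis, 5 were listed for any compound and *cyp27a1.4* and *hmgcra* for impurity L. Of 45 fatty acid genes, 12 were listed for any compound and 3 for impurity L. These were *acaca* (up) and the paralogs *pparaa* (up) and *pparab* (down), which encode a nuclear receptor that controls fatty acid oxidation. The Reactome term metabolism of lipids and lipoproteins held 13 upregulated and 7 downregulated genes. Impurity Q had 14 and 7 in this term, impurity R 12 and 10, and impurity I 12 and 12. Downregulated genes were more numerous for azithromycin (10 and 12), impurity F (11 and 14), impurity J (7 and 12), and impurity S (7 and 14). The lipin gene *lpin1* and the leptin receptor gene *lepr* were downregulated in all 8 tables.

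Central carbon metabolism was listed in both directions. In glycolysis and gluconeogenesis, with 8 of 66 genes (12.1%), *aldoaa*, *gapdh*, *ldhbb*, and *aldh9a1b* were upregulated and *eno3*, *g6pca.1*, *pdha1a*, and *aldh9a1a.1* were downregulated. The first group holds the aldolase, glyceraldehyde-3-phosphate dehydrogenase, and lactate dehydrogenase genes, and the second an enolase gene and the E1 subunit gene of pyruvate dehydrogenase. Of the citrate cycle, *ogdha* was upregulated, and *mdh1aa* and *idh3g* were downregulated. The genes *aldoaa* and *ogdha* were not listed for any other compound. Of 40 glucose metabolism genes, 9 were listed for any compound and 4 for impurity L, 2 in each direction.

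The listed genes of the nuclear pore were all upregulated. The 5 nucleoporin genes listed for any compound, *aaas*, *nup188*, *nup50*, *nup54*, and *pom121*, were all listed for impurity L, all as upregulated. Of all genes, 34.5% were listed for impurity L and 17.7% were upregulated. The nucleoporins were picked with their values in view, so nothing is read from their share. The GTPase gene *ran*, which gives transport its direction, and the importin gene *ipo8* were upregulated as well. The genes *aaas* and *nup188* were upregulated in all 8 tables, *pom121* for azithromycin and impurity L, *nup54* for impurities Q and L, *nup50* for azithromycin and impurities R, L, and F, and *ipo8* for impurity L. RNA transport held 9 upregulated and 3 downregulated genes. The downregulated ones were the translation factor genes *eif4e1c*, *eif4bb*, and *eif5*. In the other 7 tables upregulated genes also outnumbered downregulated ones in this term, from 9 and 5 (azithromycin) to 10 and 1 (impurity R). Gene silencing by RNA consisted of *ran*, *pom121*, *nup188*, *ipo8*, and a gene that RefSeq names *tnrc6bb.1* (up) and of *dicer1*, the nuclease that matures microRNAs (down). Several of these are transport genes, so the share of this term and that of RNA transport rest in part on the same genes.

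Splicing genes lay on the other side. Of 10 spliceosome genes listed for impurity L, 8 were downregulated. They were *sf3b1*, *snrpa1*, *snrpb2*, and *puf60a* of branch point or 3′ splice site recognition, the SR protein genes *srsf2a* and *srsf3b*, the related *tra2a*, and *hnrnpa1b*. The upregulated ones were *rbmx* and *acin1a*. The spliceosome term held 1 upregulated and 7 downregulated genes for impurity I, 3 and 5 for azithromycin and impurity J, and 4 and 5 for impurity F. It held 4 and 3 for impurities Q and R and 5 and 3 for impurity S. Counted by name, which was done after the values were seen, 11 of 15 splicing factor genes were listed for impurity L, 2 as upregulated and 9 as downregulated, where 34.5% of all genes were listed and 16.8% were downregulated. Since the set was picked for its values, nothing is read from its share. The same set held 4 and 4 genes for azithromycin, 3 and 2 for impurities J, Q, and S, 2 and 4 for impurity I, 1 and 3 for impurity R, and 1 and 4 for impurity F. The genes *sf3b1*, *tra2a*, and *rbmx* were not listed for any other compound. The gene *snrpb2* was downregulated for impurities L, I, and F and upregulated for azithromycin and impurities J, Q, R, and S.

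**Figure D4:**
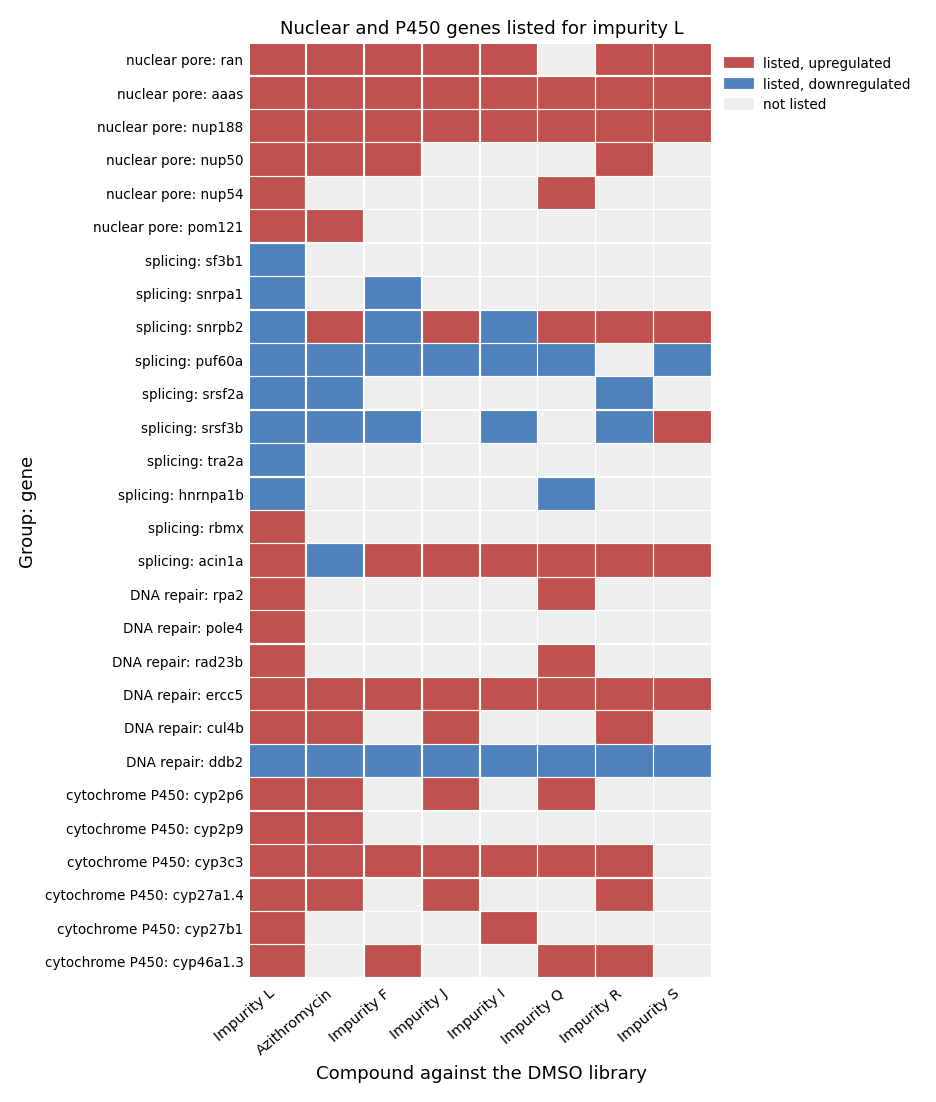
Direction of genes of nuclear transport, splicing, nucleotide excision repair, and cytochrome P450 listed for impurity L (rows) in the table of each compound (columns), as upregulated (red), downregulated (blue), or not listed (gray). The nuclear transport and cytochrome P450 genes shown were upregulated in each table that lists them, and *ddb2* was downregulated in all 8 tables.

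DNA repair and replication genes were listed in both directions. In nucleotide excision repair, *rpa2*, *pole4*, *rad23b*, *ercc5*, and *cul4b* were upregulated and *ddb2*, which detects ultraviolet damage, was downregulated. This term held 5 upregulated and 1 downregulated gene for impurity L and 2 to 4 genes for the other compounds. It held 3 and 1 for impurities J and Q, 2 and 1 for azithromycin and impurity R, 1 and 1 for impurity I, and 1 and 2 for impurities F and S. Outside it, *fen1*, *prim2*, and *orc1* of replication (the KEGG term DNA replication held 4 upregulated genes, *fen1*, *prim2*, *pole4*, and *rpa2*, and 0 downregulated ones), the glycosylase gene *neil1*, the helicase gene *brip1*, and *atm* were upregulated. Against them stood *eme1* of homologous recombination, the endonuclease gene *apex1*, *smc6*, and the replication licensing gene *cdc6*, which were downregulated. The genes *pole4*, *neil1*, *atm*, and *cdc6* were not listed for any other compound, and *ercc5* was upregulated in all 8 tables. In transcription initiation, *taf11*, *taf6*, and *taf6l* were upregulated and *taf9*, *taf12*, and *gtf2a1* were downregulated.

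For protein synthesis and degradation, the ribosome term had 14 of 112 genes (12.5%), 6 upregulated and 8 downregulated. Of its genes, *rps24*, upregulated, was in the table of impurity L alone, and *rps18* was downregulated in all 8 tables. In ribosome biogenesis, *dkc1* and *ran* were upregulated and *riok2*, *mdn1*, and *eftud1* were downregulated, as was *las1l* outside this term. Of 43 proteasome genes, 10 were listed for any compound and 5 for impurity L, with *psma1*, *psma6b*, and *psmc3* upregulated and *psmb7* and *psme4b* downregulated. For *psme4b* the direction was shared with impurity Q alone, and it was upregulated for azithromycin and impurities J, I, S, and F. The initiation factor gene *eif5* was downregulated for impurity L and upregulated for azithromycin and impurities R, S, and F. Of 35 genes of the unfolded protein and heat shock responses, 7 were listed for any compound and *atf4a* and *hsp90ab1* for impurity L, both downregulated. The endoplasmic reticulum stress gene *herpud1*, which was outside that list and not listed for another compound, was upregulated.

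Of 11 genes in calcium signaling, 8 were downregulated. Among them were *camk2d1*, *camk2g1*, and *camk4*, kinases switched on by calcium and calmodulin, *itpr3*, the phospholipase gene *plcd4a*, the kinase gene *ptk2bb*, and the sodium-calcium exchanger gene *slc8a2b*. The upregulated ones were *chrna7*, *cysltr1*, and *erbb3b*. The 5 genes of NMDA receptor activation, all downregulated, were these 3 kinase genes, *hrasb*, and *gria3b*, so that term names a brain receptor while most of its listed genes are general kinases. The gene *camk2g1* was not listed for another compound and *itpr3* was downregulated in all 8 tables. The direction of the calcium signaling term was 3 up and 8 down for impurity L, 8 and 6 for azithromycin, and 1 and 8 for impurity F.

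For endocytosis, 13 genes were upregulated and 11 downregulated. The coat and sorting genes *clta*, *epn1*, *rab5aa*, *vps28*, *vps4b*, and *ist1* were upregulated. The adaptor gene *ap2m1a* and the sorting and trafficking genes *snx12*, *ehd2b*, and *arfgap2* were downregulated, as were the receptor-silencing genes *arrb2a*, *adrbk2*, and *grk4*. The lysosome term held 1 gene for impurity L, *clta*, of 121 (background 6.85% of KEGG pairs). It held 2 genes for azithromycin and 4 to 8 for the others. Of 49 lysosome genes, 4 were listed for any compound and 0 for impurity L. Focal adhesion held 11 upregulated genes, among them *itgb1a*, *col6a1*, *flnca*, and *flncb*, and 8 downregulated ones, among them *itgb3b*, *lama5*, *actn1*, and *actb1*.

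For impurity L, 5 pairs of paralogs were listed, each with symbols that differ only in a closing a or b. Both *fosaa* and *fosab* and both *flnca* and *flncb* were upregulated. The pairs *ap2m1a* (down) and *ap2m1b* (up), *eif4ba* (up) and *eif4bb* (down), and *pparaa* (up) and *pparab* (down) were listed in opposite directions. The other tables held 2 to 5 such pairs. Opposite directions would also arise if reads moved between paralogs in mapping, which was not tested. In the order of genes in the RefSeq annotation of the assembly GRCz12tu, 10 pairs of listed genes were direct neighbors among protein-coding genes, and 5 of them shared a direction. These included the run of 3 genes *slc12a3*, *herpud1*, and *cetp*, all upregulated.

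Further genes listed for no other compound had varied roles, and not all such genes are named here. The GABA receptor subunit gene *gabra2*, the selenocysteine lyase gene *scly*, and *sin3ab*, a scaffold of histone deacetylase complexes, were upregulated. The histone deacetylase gene *hdac1* and *cdc26* (31 terms), a subunit of the anaphase-promoting complex, were downregulated. So were the potassium channel gene *kcnj15*, the urea transporter gene *slc14a2*, the dopamine receptor gene *drd3*, the phosphatase gene *inpp5f*, and the metabolic enzyme genes *fpgt*, *bdh2*, and *nmrk1*. The Reactome cell cycle term held 13 upregulated and 8 downregulated genes, of which *psma1*, *psma6b*, *psmb7*, and *psme4b* are proteasome genes. Megakaryocyte development and platelet production held the kinesin genes *kif2c* (up) and *kif23* (down), *racgap1* of cytokinesis (down), the histone gene *h3f3a*, *rab5aa*, *sh2b1*, and the transcription factor gene *gata6* (up), and *ehd2b* (down). Ion homeostasis held the sodium pump genes *atp1a1a.1* (up) and *atp1b2a* (down) beside *slc8a2b*, *camk2d1*, and *camk2g1*. The cellular response to heat stress held *pom121*, *nup188*, and *rpa2* (up) and *hsp90ab1*, *hdac6*, *camk2d1*, and *camk2g1* (down), so of its 7 genes *hsp90ab1* encodes a chaperone.

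The labelled tissue could not be checked against marker levels, since the tables hold only DEGs. Of 29 hepatocyte markers, 5 were listed for any compound, and *fgb*, the fibrinogen β chain gene, was upregulated for impurity L. Of 32 muscle markers, 9 were listed for any compound and 3 for impurity L, *mylpfa* (up) and *tnnt3b* and *tpma* (down). Muscle contraction held 3 upregulated and 10 downregulated genes. Downregulated genes were also more numerous in this term for every other compound, from 6 and 7 (impurity S) to 3 and 10 (impurity Q). The part that muscle carried along with the liver had in these values was not tested. Of the other markers, *tek* (endothelium), *acta2* (stellate cells and fibroblasts), and *slc12a3* (kidney) were upregulated and *tp63* (skin) was downregulated. None of the biliary, erythrocyte, pancreatic acinar, intestine, or neuron and eye markers was listed for impurity L. Over all marker lists, 9 of 183 genes were listed for impurity L, or 31.0% of the 29 listed for any compound, and over the pathway lists 27 of 466, or 35.1% of 77, both near the 34.5% of all genes.

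At the same dose of 2 mM and 72 h, azithromycin and impurity F are compounds that the study compares with impurity L for the side chain at C5. Impurity F carries an aldehyde on the nitrogen there. The genes *akt2l* and *alcama*, a cell adhesion gene, were upregulated for impurity L and downregulated for both, and *eif5* was downregulated for impurity L and upregulated for both. They are named because every other compound that lists them had the opposite direction. Further genes were opposite to both compounds, and not all are named here. Among them, *psme4b*, *mef2cb*, *ctbp2a*, *hao2*, and *ttbk2a* were downregulated for impurity L, and *rps6ka1* and *adcyap1b* were upregulated. The gene *snrpb2* was downregulated for impurities L and F and upregulated for azithromycin, and *birc2* was upregulated for impurities L and F and downregulated for azithromycin. The AP-1 gene *fosab* and the P450 genes *cyp2p6* and *cyp2p9* were upregulated for azithromycin and impurity L and not listed for impurity F. With 1 library per compound and no values, neither the size nor an interval of a difference between compounds can be computed from these tables. At lower concentrations, the study saw stronger liver damage in larvae with impurity L than with azithromycin, and almost none with impurity F. The same dose is therefore not shown to mean the same damage. The degree of damage behind these libraries is not given, and its part in these directions was not tested.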

How the data were processed

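RNA from dissected larval liver was sequenced for DMSO and 8 compounds, 1 library each. FastQC, fastp, and HISAT2 and the genome build GRCz11 are named in the submitters' processing notes, without versions. A test for single genes is not given in the sources used here. The authors' deposited tables hold, for each pathway of KEGG, Reactome, and PANTHER, numbers of listed and background genes, each of them as a fraction of the database total, a p-value, a corrected p-value, and the DEGs with direction. The deposited p-values and fractions are the authors' own comparison and were not used. The deposited gene numbers equalled the genes listed in every row.

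Distinct genes were counted by Entrez identifier. All 398 were matched to RefSeq (GRCz12tu), used for names and gene order. 13 have no symbol in the file. Gene lists were matched by symbol. No test was run. The members, the gene lists, and the rule for named genes were chosen with earlier results of these data known. Named were list members, the 10 genes per direction in most terms, up to 15 per direction listed for no other compound, genes opposite to at least 3 other tables, and genes of the terms with the largest shares or numbers of genes. Other genes of the terms and the families were picked with their values in view. The alternatives tried were single databases, limits on background genes (at least 5, at most 200), symbols, and other minima. The reader of the tables was tested on simulated data. Python 3.11.15, pandas 2.3.3, and matplotlib 3.10.9 were used. Some listed genes are not reported here.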

Additional observations from a re-analysis of the deposited data

Results flagged for a closer look

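In 3 genes the direction for impurity L was opposite to that for every other compound that lists the gene, with at least 3 such compounds. The gene *alcama* was upregulated for impurity L and downregulated for 6 compounds. The gene *akt2l* was upregulated for impurity L and downregulated for 4. The gene *eif5* was downregulated for impurity L and upregulated for 4. These differences were not tested, since each compound has 1 library, and all comparisons share the DMSO library.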

How the results depend on the processing

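The number of genes listed for impurity L was 398. With Reactome rows alone it was 231 (118 upregulated, 113 downregulated), and with PANTHER rows alone 23 (11 and 12), because fewer rows were read. With KEGG rows alone it was 289, with rows of at most 200 background genes 384, and with 1 entry per symbol 385. Upregulated genes made up 51.2% with KEGG, 51.1% with Reactome, and 47.8% with PANTHER rows. Of the pathway list members, 27 were listed in all, 14 in Reactome rows, and 4 in PANTHER rows. The 5 paralog pairs came to 4 in KEGG, 0 in Reactome, and 0 in PANTHER rows. The number of terms with at least 5 genes was 242. It was 429 with a minimum of 3 genes, 105 with a minimum of 10, and 165 when terms with the same genes were counted once. No paired analysis was possible because each group holds 1 library. Depth is unknown, so no limit of detection can be given.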
